A study of Mus musculus with 79 samples.

Results

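The 10 genes described here carry the breakdown of the branched chain amino acids leucine, isoleucine and valine in mitochondria. They are Bcat2, Bckdha, Bckdhb, Dbt, Bckdk, Ppm1k, Ivd, Mut, Hibadh and Aldh6a1, chosen by gene symbol from the 22335 named genes of the arrays, and each was read by 1 probeset. Expression was measured in quadriceps muscle of male BXD mice, inbred lines made by crossing C57BL/6J with DBA/2J, and of both parents. Mice ate a chow diet (CD) throughout life, or a high fat diet (HFD) from 8 weeks of age. All were fasted overnight and sacrificed at 29 weeks, and the labels name no other allele or agent. Each of the 79 arrays (42 CD, 37 HFD) was hybridised with pooled RNA from about 5 males of a single strain and diet, so that differences between animals of a strain were not measured. The arrays came from 42 strains (40 BXD strains and both parents), with arrays on both diets for 37 and on CD alone for 5.

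Skeletal muscle is a main site of branched chain amino acid breakdown. Bcat2 removes the amino group in the mitochondria, and the branched chain ketoacid dehydrogenase complex then takes the irreversible step. Bckdha and Bckdhb encode the alpha and beta subunits of its E1 component, and Dbt the E2 core. The kinase Bckdk switches the complex off by phosphorylating E1, and the phosphatase Ppm1k switches it on. After the complex the routes part, with Ivd on the leucine route, Hibadh and Aldh6a1 on the valine route, and Mut at the step where propionyl units from valine and isoleucine enter the citric acid cycle. The transcription factor Klf15 is known to promote this pathway in muscle during fasting.

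The sequences before the transcription starts are shown for Ppm1k, Ivd, Aldh6a1 and Bckdhb, the members called lower on HFD in a fit below, to give their promoter context. Aldh6a1 and Bckdhb have 2 starts each, numbered in the direction of transcription, and for Bckdhb the first is shown. RefSeq entries (assembly GRCm38.p6) were found for 8 of the 10 genes, with Dbt and Mut as the exceptions, and each sequence is the 250 bases before a start. The array table named no genome build, so these positions are those of RefSeq and not of the probesets. Capitals mark matches on either strand to CACCC, a core bound by Krüppel-like factors such as Klf15, to GGGCGG, the GC box, to AGGTCA, the nuclear receptor half-site, and to AGAACA, the glucocorticoid receptor half-site. None of these 4 motifs contains another.
Ppm1k, chr6:57535488-57535737, minus strand: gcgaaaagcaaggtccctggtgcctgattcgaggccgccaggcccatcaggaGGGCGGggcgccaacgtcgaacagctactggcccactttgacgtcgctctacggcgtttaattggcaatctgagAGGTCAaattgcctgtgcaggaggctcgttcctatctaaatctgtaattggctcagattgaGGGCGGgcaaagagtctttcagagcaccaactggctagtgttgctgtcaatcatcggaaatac
Ivd, chr2:118861744-118861993, plus strand: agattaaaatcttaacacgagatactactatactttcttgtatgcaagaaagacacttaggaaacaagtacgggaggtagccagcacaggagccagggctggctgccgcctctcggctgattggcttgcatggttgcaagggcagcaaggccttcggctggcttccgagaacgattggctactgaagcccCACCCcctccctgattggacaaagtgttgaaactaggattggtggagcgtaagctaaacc
Aldh6a1, first start, chr12:84451025-84451274, minus strand: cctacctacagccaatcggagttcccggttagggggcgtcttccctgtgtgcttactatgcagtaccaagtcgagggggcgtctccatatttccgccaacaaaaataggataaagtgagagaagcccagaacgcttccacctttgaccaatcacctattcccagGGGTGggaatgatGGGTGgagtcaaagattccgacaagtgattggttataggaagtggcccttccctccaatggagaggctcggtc
Aldh6a1, second start, chr12:84448318-84448567, minus strand: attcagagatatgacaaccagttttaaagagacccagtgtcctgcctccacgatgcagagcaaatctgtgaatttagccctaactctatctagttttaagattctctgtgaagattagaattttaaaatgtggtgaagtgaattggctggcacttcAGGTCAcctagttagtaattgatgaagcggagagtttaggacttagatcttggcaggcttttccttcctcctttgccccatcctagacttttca
Bckdhb, chr9:83924887-83925136, plus strand: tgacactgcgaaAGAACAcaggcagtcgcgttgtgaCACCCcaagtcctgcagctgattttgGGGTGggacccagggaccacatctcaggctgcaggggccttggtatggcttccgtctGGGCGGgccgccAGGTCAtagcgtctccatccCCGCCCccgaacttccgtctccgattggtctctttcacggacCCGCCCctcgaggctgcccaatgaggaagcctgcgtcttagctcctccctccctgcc

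The 8 genes have 11 starts in all. CACCC was found before 6 of the 11 (54.5%), and in 52.0% of the 32851 mouse promoters of this length. GGGCGG was found before 3 (27.3%) and in 32.7% of all promoters. AGGTCA was found before 3 starts (27.3%) and in 14% of all promoters, and AGAACA before 2 (18.2%) and in 16.1%. In the sequences shown, Ppm1k had GGGCGG at 2 positions and AGGTCA at 1, and Ivd had CACCC at 1. The first start of Bckdhb held matches to all 4 motifs, among them 3 to GGGCGG, while its second start, not shown, held 0. G and C made up 63.2% of the bases before the first start, beside a median of 52.4% over all promoters. A match is a run of letters and was not tested for binding.

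The values are scores in array units, and the 35556 probesets of any array average 8.0 with an SD of 2.0. The log base was not stated, so differences are given in score units and not as folds. Levels of different genes are not compared, because probes differ in brightness. In limma the array batch given in the titles (18 CD and 17 HFD arrays in batch 1, 24 and 20 in batch 2) called 0 probesets, with 0 at an unadjusted p below 0.05, and moved no member by more than 0.022. The smallest batch p of any probeset was 0.266. The sources used here do not state whether scores were adjusted for batch before deposit, and on scores adjusted in that way this fit could not find a batch effect. The 10 skeletal muscle markers averaged 14.5 on both diets, against an array mean of 8.0. Over the 10 members, the CD array of strain BXD90 stood lowest. Its members lay on average at -1.49 SD from the CD means, the next lowest CD array was at -0.961 SD, and 5 members (Bckdhb, Dbt, Ivd, Mut and Aldh6a1) had their lowest CD score there. Its muscle marker level of 14.5 and its adipocyte marker level of 9.67 were close to the CD means of 14.5 and 9.83, and its slow fibre marker level of 10.5 ranked 34 from the bottom of 42. Members and relations whose call changed without this strain are named below, and some other values are also given without it.

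The first comparison asked how the genes differed between diets. Ppm1k, Ivd and Aldh6a1 were called lower on HFD and no member was called higher, in a limma fit with diet and batch over all 79 arrays and a Benjamini-Hochberg adjustment over all probesets. The count of 3 called members of 10 is read against 38.1% of all probesets called (18.9% higher and 19.3% lower on HFD). Among probesets at least as bright as the dimmest member, 28.5% were called (18.4% higher and 10.1% lower). The share of members called in either direction was thus near the background. The median absolute difference was 0.067 over the members, 0.076 over all probesets and 0.054 over the bright ones.

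Among the genes of the dehydrogenase complex and its control, the phosphatase Ppm1k showed the largest difference. Its score on CD ran from 8.24 over a median of 8.75 to 9.19, and on HFD from 8.22 over a median of 8.57 to 9.03. The ranges overlapped over most of their length, and the HFD arrays lay lower as a group, with 29 of 37 strains lower on HFD. The difference was -0.180 (SE 0.0487, limma adjusted p = 0.00200). Strain BXD73, whose CD array is of batch 1 and HFD array of batch 2, had the highest CD score and the largest drop, from 9.19 to 8.43, while BXD97 stayed high with 9.10 on CD and 9.03 on HFD.

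The E1 beta subunit gene Bckdhb scored between 9.79 and 10.9 on CD, with a median of 10.3. On HFD it scored between 9.55 and 10.8, with a median of 10.1. Single strains moved far apart from each other, from a drop in BXD71 (10.64 to 10.03) to a gain in BXD83 (10.15 to 10.49, with its CD array in batch 2 and its HFD array in batch 1), and 26 of 37 strains were lower on HFD. The difference of -0.149 (SE 0.0683) did not pass the test over all arrays (limma adjusted p = 0.0750). With strain as a replicate block over the 37 paired strains, which sets each HFD array against the CD array of its own strain, the difference was -0.153 (SE 0.0377) and passed (limma adjusted p = 0.00127). Under this block 4 of the 10 members were called, beside 40.6% of all probesets and 34.7% of the bright ones.

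The other genes of the complex did not pass. Bckdha, the E1 alpha subunit gene, had a median of 10.7 on both diets and a difference of 0.0682 (SE 0.0318, limma adjusted p = 0.0814), with 24 of 37 strains higher on HFD. For Dbt, the E2 core, the difference was 0.0174 with a 95% interval from -0.0545 to 0.0893, and 18 strains were higher and 19 lower. Bckdk, the inhibiting kinase, differed by 0.0236 with an interval from -0.0170 to 0.0642. Subunits of this complex therefore had estimates of both signs, and differences between the genes themselves were not tested.

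The leucine route gene Ivd, which encodes isovaleryl-CoA dehydrogenase, scored from 10.6 over a median of 11.2 to 11.6 on CD. On HFD it scored from 10.41 over a median of 10.97 to 11.31. The ranges overlapped, and the score was lower on HFD in 30 of 37 strains, the most of any member. The difference was -0.177 (SE 0.0595, limma adjusted p = 0.0134), and -0.192 (SE 0.0306, limma adjusted p = 4.21e-06) with strain as a block. The largest drop was in BXD65 at -0.480, and the largest gain was in BXD90 at 0.173, the strain with the low CD array. Without BXD90 the difference was -0.186 and remained called (limma adjusted p = 0.00872).

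On the valine route Aldh6a1, methylmalonate semialdehyde dehydrogenase, was lower on HFD. Its score ran from 11.4 over a median of 11.7 to 11.9 on CD, and from 11.4 over a median of 11.6 to 11.9 on HFD. The groups covered nearly the same range, and 25 of 37 strains were lower on HFD. The difference of -0.0788 (SE 0.0292, limma adjusted p = 0.0259) was smaller than the SD between strains, which was 0.131 on CD and 0.123 on HFD. It was not called when arrays were set to a common median, where it was -0.0617 (limma adjusted p = 0.122). Hibadh, the other valine enzyme, differed by 0.0205 (95% interval -0.0259 to 0.0669). Mut, methylmalonyl-CoA mutase, differed by 0.0246 (interval -0.0356 to 0.0848). The aminotransferase Bcat2 differed by -0.0655 (interval -0.150 to 0.0190), with 22 of 37 strains lower on HFD.

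**Figure D1:**
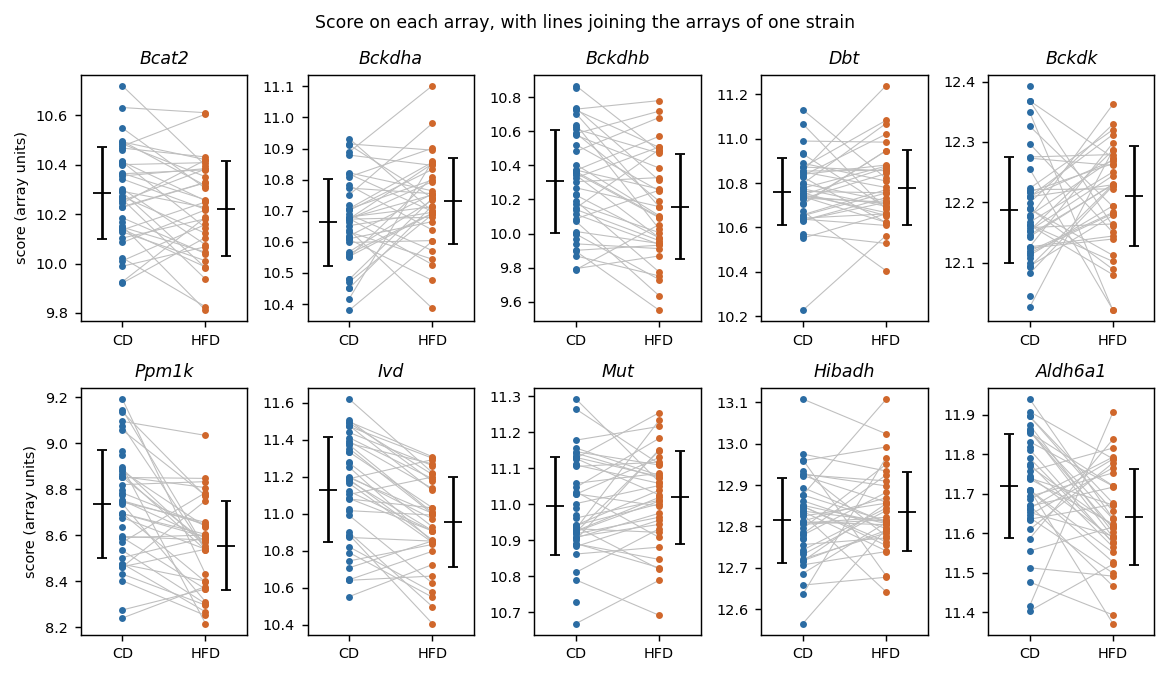
Score of each of the 10 genes on every array, with CD (42 arrays) in blue and HFD (37 arrays) in orange. Grey lines join the CD and HFD arrays of the same strain, and the black bars give the mean and 1 SD. Ppm1k, Ivd and Bckdhb shift down from CD to HFD in most strains, while the clouds of both diets overlap in all 10 genes.

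Adipocyte markers moved with diet in the same samples. Of 8 such genes, 6 were higher and 1 (Cfd) lower on HFD, and their mean level was 9.83 (range 9.27 to 10.8) on CD and 10.3 (range 9.42 to 11.2) on HFD, higher in 30 of 37 strains. Leptin (Lep), a hormone of fat cells, differed by 1.58 (SE 0.185, limma adjusted p = 5.02e-11). Of 6 macrophage markers 4 were higher (5 with strain as a block, Lyz2 being added), while 0 of 7 slow fibre markers and 0 of 4 red cell markers were called. Of the 10 skeletal muscle markers 2 were called, with myoglobin (Mb) higher at 0.130 (limma adjusted p = 0.00892) and the fast fibre gene Tnni2 lower at -0.0954 (limma adjusted p = 0.00251). The slow fibre gene Myh7 had a second, dimmer probeset, which was lower on HFD at -0.221 (limma adjusted p = 1.38e-04). The level of the adipocyte markers was set against each member over the strains within each diet. Together with the same relations for slow fibre markers, 0 of 40 had a permutation p below 0.05 after Benjamini-Hochberg adjustment, with a smallest adjusted p of 0.520 for Pearson's r and 0.183 for Spearman's rho (Hibadh with slow fibre markers on CD, rho of 0.434). These relations were added after the data were seen. Fewer cells of a type and less RNA per cell cannot be told apart in such bulk samples, and the part of the markers in the diet differences was not tested beyond this.

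The 22 other genes of the pathway on the array were split between directions. On HFD 5 were higher, 4 were lower and 13 were not called, and their median difference was -0.002. Over all probesets 18.9% were called higher and 19.3% lower. With strain as a block 11 of the 22 were called, Hsd17b10 and Mmaa being added, beside 40.6% of all probesets. Among uptake genes and regulators, Slc7a5, the light chain of the large neutral amino acid transporter, was lower by a difference of -0.244 (SE 0.0585, limma adjusted p = 5.07e-04). Its heavy chain partner Slc3a2 was higher, at 0.105 (SE 0.0350, limma adjusted p = 0.0124). Klf15 was lower, at -0.121 (SE 0.0405, limma adjusted p = 0.0129), in 24 of the 37 strains. The mitochondrial carrier Slc25a44 (0.0624) and the transporter Slc7a8 (-0.0760) were not called.

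Among the enzymes, Bcat1, the cytosolic aminotransferase of the first step, was higher by 0.152 (SE 0.0313, limma adjusted p = 5.79e-05). Its probeset was dim, with a mean of 7.56 against an array mean of 8.0. On the leucine route Mccc2, a subunit of methylcrotonyl-CoA carboxylase, was higher by 0.0658 (SE 0.0224, limma adjusted p = 0.0148), while its partner Mccc1 at -0.0568 and Auh were not called. On the isoleucine and valine routes Acadsb, short branched chain acyl-CoA dehydrogenase, was lower at -0.133 (SE 0.0318, limma adjusted p = 4.57e-04). Acad8, isobutyryl-CoA dehydrogenase, and Acat1, the thiolase that also serves ketone bodies, were higher by 0.0752 and 0.178. Echs1, Hibch and Hsd17b10 were not called, but Hsd17b10, the dehydrogenase of the isoleucine route, was higher by 0.0722 (SE 0.0230, limma adjusted p = 0.0110) with strain as a block. In propionate handling Pcca was lower at -0.0935 (SE 0.0364, limma adjusted p = 0.0340), and Pccb, Mcee, Mmaa and Mmab were not called, while Mmaa was higher by 0.0845 (limma adjusted p = 0.0173) with strain as a block. Both directions were thus called among the uptake genes and regulators and on the isoleucine and valine routes, and differences between routes were not tested.

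For a comparison with enzymes of similar build, 12 genes of the pyruvate and oxoglutarate dehydrogenase complexes were read. Of these, 4 were higher on HFD (Dlat, Pdp1, Ogdh and Dlst) and 0 were lower, beside 18.9% of all probesets higher and 19.3% lower. Dlat passed narrowly (limma adjusted p = 0.0491). With strain as a block 5 were called, beside 40.6% of all probesets, Pdhx being added (0.0709, limma adjusted p = 0.0295). Pdha1 was not called by its brighter probeset (0.0288), but its second probeset was higher, at 0.122 (limma adjusted p = 0.00306). Pdp1, a pyruvate dehydrogenase phosphatase, was higher by 0.124 (SE 0.0412, limma adjusted p = 0.0127), whereas Ppm1k, the phosphatase of the branched chain complex, was lower as given above. Dld, the E3 subunit that these complexes share with the branched chain complex, differed by 0.0533 and was not called. The difference between the lists was not tested.

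**Figure D2:**
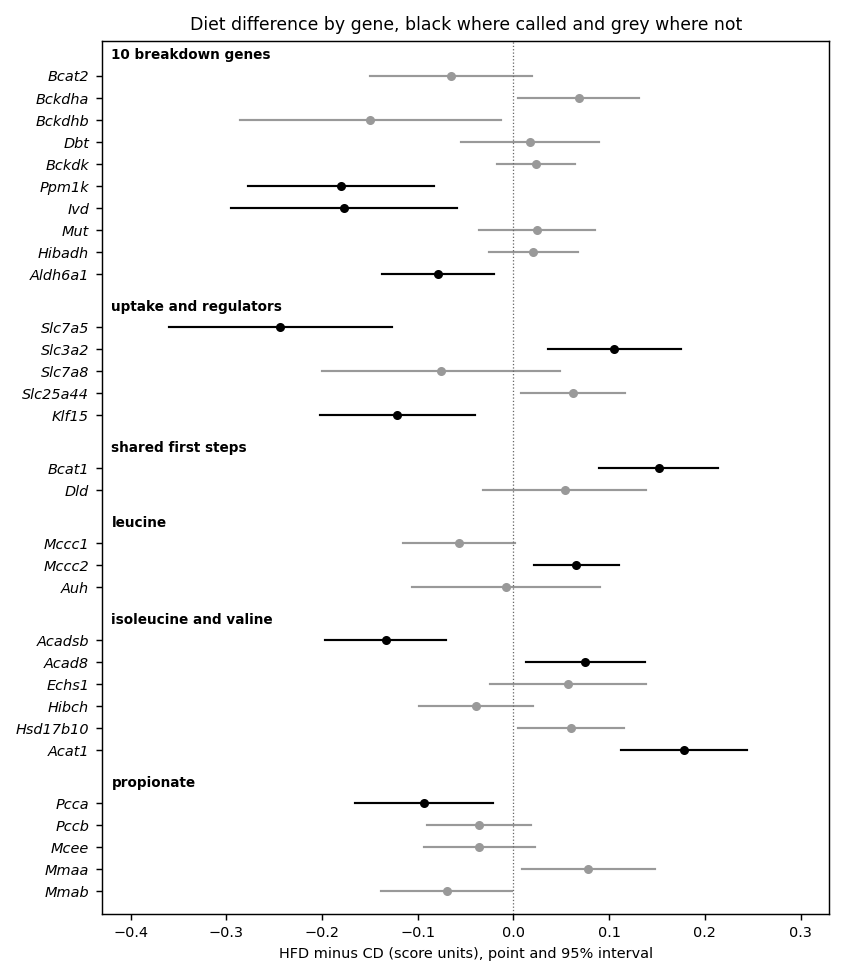
Difference in score between diets (HFD minus CD) with its 95% interval for the 10 breakdown genes and other genes of the pathway, grouped by role. Black marks genes called by limma at an adjusted p below 0.05 and grey the others; the breakdown genes in black, Ppm1k, Ivd and Aldh6a1, all lie left of 0.

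The second comparison asked how far strains differed and whether they kept their order between diets. The distance between the highest and lowest strain had a median of 0.710 over the members on CD and 0.758 on HFD. Without BXD90 the median on CD was 0.570, and the CD range of Dbt went from 0.903 to 0.578. The range was widest for Bckdhb (1.08 on CD, 1.23 on HFD) and Ivd (1.07 and 0.903), and narrowest for Bckdk (0.367 and 0.341). These ranges rest on 1 array per strain and diet, and the 10th to 90th percentile span had a median of 0.358 on CD and 0.354 on HFD.

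Strain differences were tested with a limma F-test over the 37 paired strains, with diet and batch as terms and adjustment over all probesets. They were set against the spread within a strain, which is that between its CD and HFD arrays after these terms. With 1 array per strain and diet, this spread holds any diet response particular to a strain as well as array noise. The F-test called 6 of the 10 members, against 13.6% of all probesets and 26.5% of probesets at least as bright as the dimmest member. In order of F, they were Ivd (7.28), Bckdhb (6.03), Bcat2 (4.17), Mut (3.62), Ppm1k (2.70) and Dbt (2.63), with adjusted p from 6.32e-07 for Ivd to 0.0214 for Dbt. Dbt was not called without BXD90 (F of 2.27, adjusted p = 0.0572), and the other 5 were. Ppm1k and Dbt were called neither in the 12 strains of batch 1 (adjusted p = 0.374 and 0.130 in limma) nor in the 17 of batch 2 (adjusted p = 0.106 and 0.205 in limma). Their F there was 1.77 and 3.32 in batch 1, and 3.20 and 2.49 in batch 2. The F was thus lower than over all 37 strains for Ppm1k in batch 1 and Dbt in batch 2, and higher for the other two. Bckdha (1.95), Hibadh (1.61), Aldh6a1 (1.07) and Bckdk (0.642) were not called. The list thus ran across roles, with the complex subunit Bckdhb and its partner Bckdha on different sides of the threshold, which does not show that they differ.

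The agreement between diets, taken from the same arrays, followed the same order. Over 37 strains, with batch means removed within each diet, Pearson's r between CD and HFD was 0.769 for Ivd (rho 0.805) and 0.692 for Bckdhb (rho 0.728). Both had a two-sided permutation p of 1e-05, the smallest that 100000 draws can give. For Bcat2 r was 0.659 (rho 0.677, permutation p = 1e-05) and for Mut 0.630 (rho 0.643, permutation p = 2e-05). An r of at least 0.5 was reached by these 4 members of 10 and by 7.69% of all probesets, or 16.6% of those at least as bright as the dimmest member. Ppm1k had an r of 0.45 (rho 0.380, permutation p = 0.00498), Dbt 0.425 (rho 0.474, permutation p = 0.00968) and Bckdha 0.351 (rho 0.373, permutation p = 0.0337). Hibadh (0.305, permutation p = 0.0666), Aldh6a1 (0.0670, permutation p = 0.693) and Bckdk (-0.139, permutation p = 0.413) did not pass. These are 10 relations with unadjusted p-values, and the F-test above is the one adjusted over the array. When the 2 strains at the greatest distance from the CD median were left out, r was 0.764 for Ivd, 0.70 for Bckdhb, 0.602 for Bcat2 and 0.668 for Mut. Without BXD90 r was 0.584 for Mut, 0.379 for Dbt and 0.777 for Ivd, and the same 7 members had a permutation p below 0.05. None of the 10 genes split the strains into separate clusters by a mixture model.

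Batch was checked within this relation. Ivd had an r of 0.829 over 12 strains whose arrays were both of batch 1, 0.774 over 17 of batch 2 and 0.684 over 8 whose arrays came from different batches. Bckdhb had 0.753, 0.704 and 0.559, and Bcat2 0.676, 0.721 and 0.515. Mut had 0.677 and 0.733 within batches but 0.199 across them. Where batches differed (8 strains) the relation was negative for Hibadh (-0.924, permutation p = 0.00076) and Aldh6a1 (-0.813, permutation p = 0.0112), while it was 0.611 and 0.471 for Hibadh and 0.558 and 0.123 for Aldh6a1 within batches 1 and 2.

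**Figure D3:**
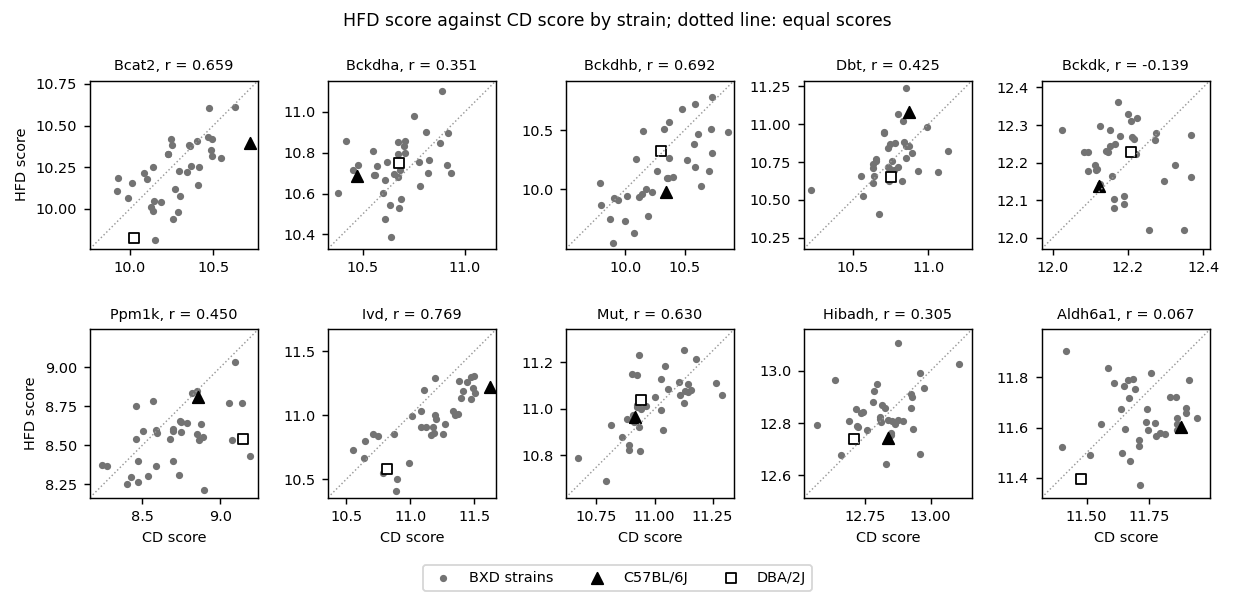
HFD score against CD score for the 37 paired strains, with 1 panel per gene in array units. Grey dots are BXD strains, the triangle is C57BL/6J, the square is DBA/2J and the dotted line marks equal scores; r is Pearson's r after batch means were removed, highest for Ivd at 0.769 and lowest for Bckdk at -0.139.

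In Ivd the strain order ran from C57BL/6J at the top (11.6 on CD, 11.2 on HFD), followed by BXD100 and BXD48, to BXD90 at the bottom (10.6 on CD, 10.7 on HFD), next to BXD65 and BXD66. Taking the mean of both diets, neighbouring strains differed by more than the within-strain SD of 0.131 at only 1 step, between BXD79 and BXD83 (0.133). Neighbours elsewhere in the order differed by less than this SD. All of the 5 highest strains scored at least 11.4 on CD and 11.2 on HFD, and none of the 5 lowest exceeded 10.90 on CD or 10.73 on HFD. The ends were chosen by these same scores, so part of this gap follows from the choice.

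Bckdhb was led by BXD69 (10.7 on CD, 10.8 on HFD), BXD70 and BXD79. At the bottom were BXD98, BXD51 (9.87 and 9.75) and BXD55 (9.90 and 9.55). No step between neighbours exceeded the within-strain SD of 0.161, so the order was graded, and the distance from first to last strain mean was 1.03. The 5 highest strains scored at least 10.48 on both diets and the 5 lowest at most 10.1 on CD and 9.87 on HFD, so the ends did not overlap. That separation follows in part from choosing the ends by these same values. For Bckdhb 27 of 37 strains lay on the same side of the diet mean on both diets, compared with 29 for Ivd, 28 for Bcat2 and 30 for Mut.

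**Figure D4:**
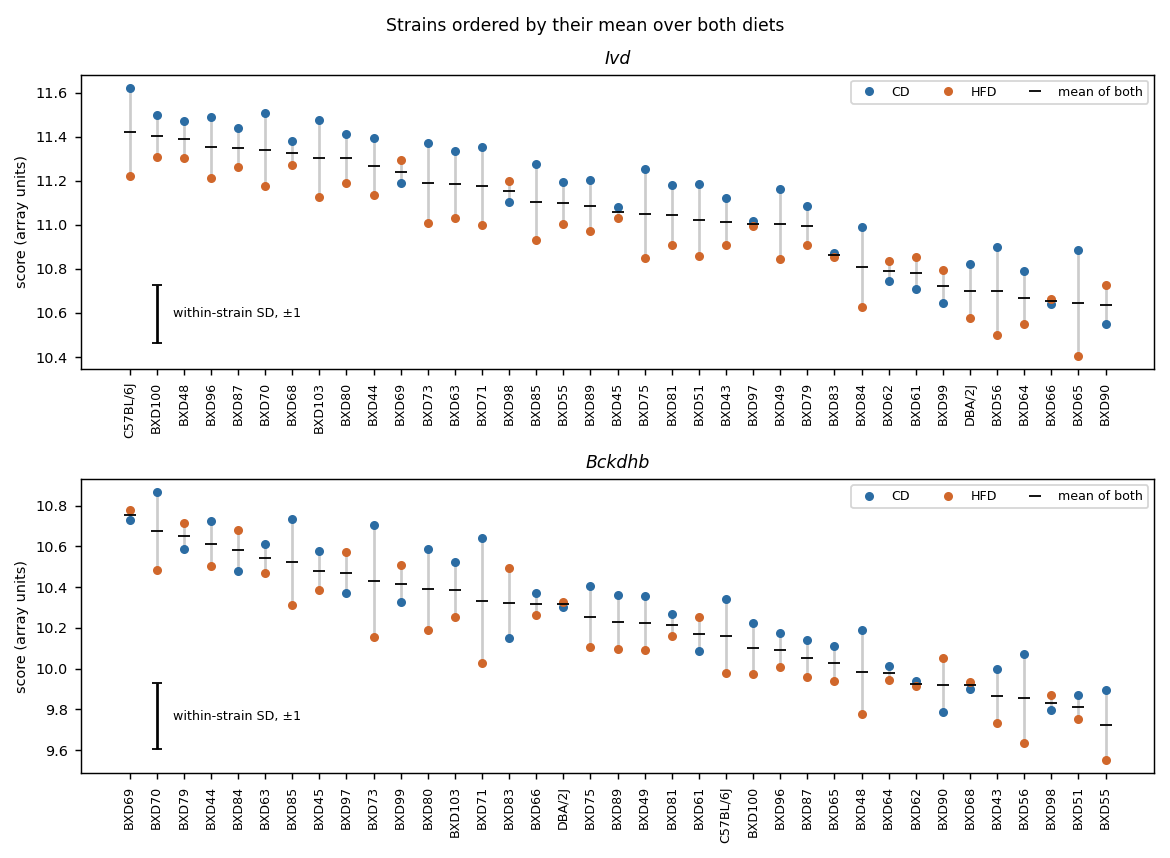
Scores of Ivd and Bckdhb in the 37 paired strains, ordered by the mean over both diets (black dash), with CD in blue and HFD in orange. The bar at the lower left spans the within-strain SD on each side, taken from the CD and HFD arrays of a strain after diet and batch terms. The strain means descend gradually, from C57BL/6J to BXD90 for Ivd and from BXD69 to BXD55 for Bckdhb.

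Several strains stood at the same end for several members. BXD97 had the highest mean for Bckdha (10.9 on CD, 11.1 on HFD), Ppm1k (9.10 and 9.03) and Mut (11.2 on both diets), and averaged 0.866 SD above the mean over the 10 members on CD and 1.43 SD on HFD. All 10 members lay above the HFD mean in it. BXD79 led Bcat2 (10.6 on both diets) and Dbt (10.9 and 11.2). BXD75 lay below the HFD mean for all 10 members, at -1.15 SD on average, and at -0.514 SD on CD. BXD73 went from 0.843 SD on CD to -0.696 SD on HFD and held the lowest HFD minus CD difference for Bcat2, Dbt, Ppm1k and Mut. It is 1 of the 8 strains whose CD and HFD arrays came from different batches, so batch and diet cannot be told apart in it. BXD69, with the same layout of batches, moved the other way, from 0.006 SD on CD to 1.12 SD on HFD, where all 10 members lay above the mean. It held the highest HFD minus CD difference for Bckdha (0.442), Hibadh (0.330) and Aldh6a1 (0.489). Cell type markers stood apart on some of these HFD arrays. The macrophage marker level of BXD69 (9.46) was the highest of the 37 HFD arrays and the adipocyte marker level of BXD79 (11.2) likewise, and their muscle marker levels (14.34 and 14.35) ranked 2 and 3 from the bottom. On CD, slow fibre markers were lowest in BXD75 (8.54) and ranked 41 from the bottom of 42 in BXD97 (11.03). The part of these markers in the members' scores was not tested strain by strain.

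Every allele of the panel comes from C57BL/6J or DBA/2J. The difference between these parents was taken from the strain fit, which borrows the within-strain spread of all 37 pairs. Ivd scored 11.6 on CD and 11.2 on HFD in C57BL/6J, and 10.8 and 10.6 in DBA/2J, so that both C57BL/6J arrays lay above both DBA/2J arrays. The difference (C57BL/6J minus DBA/2J) was 0.723 (SE 0.131, limma adjusted p = 6.34e-04). Bcat2 scored 10.72 and 10.40 in C57BL/6J and 10.02 and 9.83 in DBA/2J, a difference of 0.634 (SE 0.120, limma adjusted p = 0.00125). These were the 2 called members of 10, against 1.26% of all probesets and 2.51% of those at least as bright as the dimmest member. With the 4 parental arrays alone, neither was called, at limma adjusted p = 0.310 for Ivd and 0.349 for Bcat2.

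The other members did not pass between parents. Aldh6a1 differed by 0.303 (SE 0.129, limma adjusted p = 0.439) and Dbt by 0.272 (SE 0.121, limma adjusted p = 0.491). Bckdhb differed by -0.157 (SE 0.161, limma adjusted p = 0.957) although its strains covered the widest range. Of the 35 paired BXD strains, 16 had a Bckdhb mean above both parents and 14 below both. Counts outside the parents were also high for Ppm1k (4 above, 31 below), Mut (19 and 10) and Hibadh (26 and 2). Of these, Hibadh had no called strain effect. Such counts depend on how close the parents score, and were not particular to Bckdhb. For Ivd 0 lay above both parents and 5 below both, and for Bcat2 1 lay above and 0 below. In Slc7a5, the transporter chain named above, the parental difference was -0.742 (limma adjusted p = 0.0346), the only call among the 22 other pathway genes, with DBA/2J higher.

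Genes whose strain pattern was most like that of Ivd or Bckdhb were ranked by Pearson's r over the strain means of the 37 pairs, a description chosen as the highest of all named genes and given with no test. For Ivd, on chromosome 2, these were Gm10762 (r of 0.831), Zfp661 (0.823), Chp (0.806), Anapc1 (-0.800) and Tmem87b (-0.794). Except for Gm10762, which had no RefSeq entry by that name, all lay on chromosome 2, with 19 coding genes between Ivd and Chp and 137 to 149 between Ivd and the others. For Bckdhb, on chromosome 9, they were Gsta4 (0.687), Chrnd (0.642), Lysmd2 (0.634), Mela (0.626) and Tmem117 (0.603). Gsta4 and Lysmd2 are on chromosome 9 too, with 30 and 46 coding genes between them and Bckdhb. Chrnd is on chromosome 1 and Tmem117 on chromosome 15. Strains of this panel inherit stretches of chromosome together from one parent or the other.

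The last comparison asked whether the genes varied together over strains. Of 90 relations (45 pairs in each diet), 28 had a permutation p below 0.05 after Benjamini-Hochberg adjustment over the 90, and all 28 were positive, with 12 on CD and 16 on HFD. With Spearman's rho 15 passed. The median r over all pairs was 0.285 on CD and 0.346 on HFD, beside 0.026 and 0.031 over all pairs of the 8491 named genes at least as bright as the dimmest member. The smallest r that passed was 0.374 on CD and 0.404 on HFD. It was reached by 26.7% of the member pairs on CD and 6.69% of those pairs of named genes, and by 35.6% and 7.75% on HFD. Over all 22335 named genes the shares were 4.98% and 6.91%. The pairs share genes and arrays, so these relations are not independent of each other.

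The highest r on each diet joined Aldh6a1 to another enzyme after the complex. Ivd and Aldh6a1 had an r of 0.618 on CD (rho 0.646, adjusted permutation p = 0.00180, n = 42), and 0.626 without the 2 farthest strains. On HFD this pair had an r of 0.386 and did not pass (adjusted permutation p = 0.0576). Mut and Aldh6a1 had 0.616 on HFD (rho 0.60, adjusted permutation p = 0.00180, n = 37) and 0.538 on CD (rho 0.512, adjusted permutation p = 0.00630). Pairs that passed in both diets numbered 7, namely Bckdha with Mut, Hibadh and Aldh6a1, Bcat2 with Aldh6a1, Bckdhb with Dbt, Mut with Aldh6a1, and Ppm1k with Mut. With Spearman's rho 1 pair passed in both diets, Mut with Aldh6a1. Without BXD90 the CD relations of Bcat2 with Ppm1k, Bcat2 with Aldh6a1 and Dbt with Ivd did not pass, those of Ivd with Hibadh and Hibadh with Aldh6a1 did (adjusted permutation p = 0.0369 for both), and 27 relations passed in all.

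Within the complex, Bckdhb and Dbt had an r of 0.477 on CD and 0.404 on HFD (adjusted permutation p = 0.0139 and 0.0447). On HFD the relation did not pass with Spearman's rho (0.415, adjusted permutation p = 0.0507), and r was 0.312 without the 2 farthest strains. The E1 subunits Bckdha and Bckdhb gave r of 0.0180 on CD and 0.283 on HFD, neither of which passed (adjusted permutation p = 0.954 and 0.167). Bckdha with Dbt gave 0.103 on CD and 0.542 on HFD (adjusted permutation p = 0.637 and 0.0119), and the difference between diets was not tested. The opposing regulators Bckdk and Ppm1k gave 0.158 on CD and -0.194 on HFD and did not pass on either diet (adjusted permutation p = 0.431 and 0.380). Bckdk entered 1 of the 28 relations, with Bckdha on HFD, and Bckdha entered 9.

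**Figure D5:**
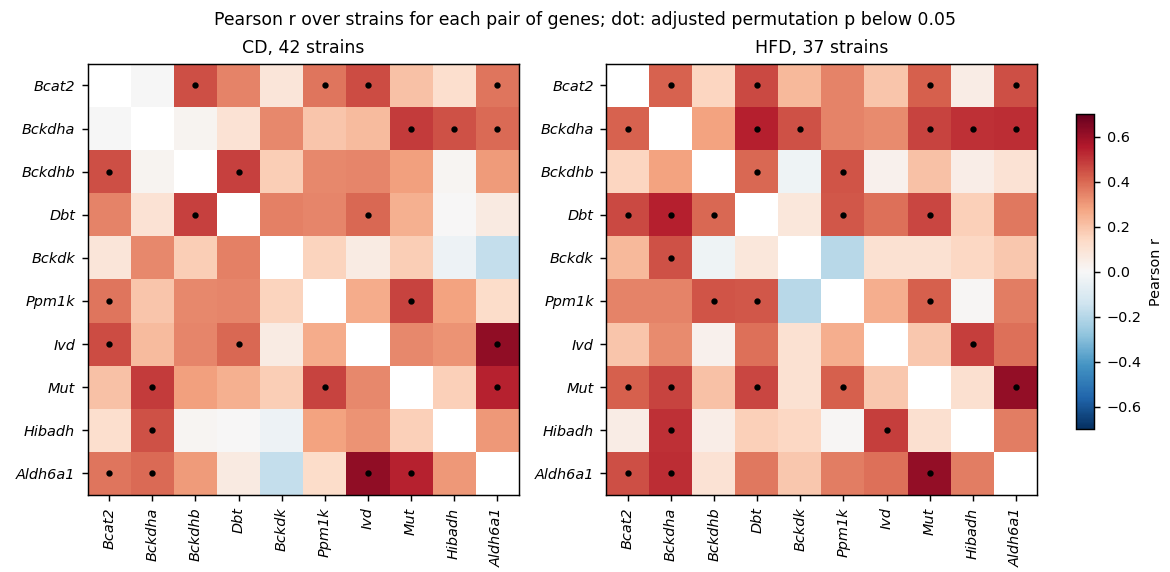
Pearson's r over strains for each pair of the 10 genes on CD (left, 42 strains) and HFD (right, 37 strains), after batch means were removed. Red is positive, blue is negative and a dot marks an adjusted permutation p below 0.05; dots fall on positive values, and the row of Bckdk holds 1 dot, on HFD.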

How the data were processed

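Quadriceps RNA was hybridised to Affymetrix arrays, and the labels name Affymetrix Expression Console as the processing tool. The authors deposited 1 score per probeset and array, and did not state its log base, summarization, background method or any batch correction. The tests had been planned for log-type values and were run on the scores unchanged. There is no counting depth on arrays, and precision is limited by their number. A base difference between parental alleles under a probe and a difference in RNA cannot be told apart here.

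Groups, strains and batches came from the titles, and the CD column BXD92 was matched to the title BXD92a, the only candidate. Each gene was read by its probeset with the highest mean. The diet effect was fitted with limma 3.58.1 in R 4.3.3 (lmFit and eBayes, diet and batch as terms, 79 arrays), with a threshold of 0.05 on the Benjamini-Hochberg adjusted p over 35556 probesets. The strain F-test and the parental contrast came from a limma fit with a coefficient per strain over the 37 paired strains. Correlations used two-sided permutation tests with 100000 draws, after batch means were removed within each diet. The fits were tested on simulated data. Separate clusters of strains required a BIC drop of at least 10 and Ashman's D above 2. Named genes were the members, fixed pathway and marker lists, and the 5 genes most like Bckdhb and like any member with a cross-diet r of at least 0.7. The results without strain BXD90, the relations to markers and the correlations over all gene pairs were added after the values were seen.

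The members and lists were chosen with earlier results of these data known. Of the other pathway genes, 1 is counted but not reported here. Arrays were paired by strain name. Deviations from the diet means correlated between the arrays of a strain with a median of 0.214 (range -0.136 to 0.395, above 0.1 in 33 of 37), and between arrays of different strains with a median of -0.006. RefSeq (GRCm38.p6) matched all 10 members, Mut as Mmut through a synonym, and supplied names, gene order and promoters only. Other steps used Python 3.11.15 with matplotlib 3.10.9 for figures, scikit-learn 1.9.0 for mixture models, and scipy 1.17.1, pandas 2.3.3 and numpy 2.4.6.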

Additional observations from a re-analysis of the deposited data

How the results depend on the processing

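The 3 diet calls (Ppm1k, Ivd and Aldh6a1) were also made without the batch term, in the paired strains with no block, without BXD63, without BXD90, with limma-trend, with the methods' t-test and without dim probesets. Batch 1 alone called 0 members and batch 2 alone 1 (Ppm1k), with fewer arrays in each. Of the 35556 probesets, 4491 were called in batch 1 alone and 8691 in batch 2 alone, beside 13551 in the main fit. Within these batches Ppm1k differed by -0.181 in batch 1 (limma adjusted p = 0.0978) and -0.179 in batch 2, Ivd by -0.223 and -0.141, and Aldh6a1 by -0.102 and -0.0603. With strain as a replicate block, and after quantile normalization, 4 were called, Bckdhb being added (adjusted p = 0.00127 and 0.0478 in limma), and the block changed no other member's call. Of the other listed genes, the block added Hsd17b10, Mmaa, Pdhx and Lyz2, as given above. Centring on the median gave 3, with Bckdha higher (0.0852, limma adjusted p = 0.0414) and Aldh6a1 not called. Over all probesets 14441 were called with the block, 13288 after quantile normalization and 13957 after centring. Hibadh turned to -0.0005 after quantile normalization. The F-test called 2 members (Ivd and Bckdhb) in the strains of batch 1, 4 (Bcat2, Bckdhb, Ivd and Mut) in those of batch 2, 7 after quantile normalization (with Bckdha) and 5 without BXD90. The share of all probesets called in each of these settings is not given, so these counts are not read against a background. With the 4 parental arrays alone 0 parental differences were called by limma, with 2 members at an unadjusted p below 0.05. CD and HFD scores correlated in 7 members at an unadjusted permutation p below 0.05, but in 2 over the 8 strains whose arrays came from different batches, both of them negative (-0.924 for Hibadh and -0.813 for Aldh6a1). There r was also below 0 for Bckdha (-0.054) and Dbt (-0.016), and r for Bckdk turned to 0.004 within batch 2. The cause was not tested. Median strain ranges became 0.358 on CD and 0.354 on HFD between the 10th and 90th percentiles. No member had a second probeset. Of the other listed genes 4 had one, and it was called for Pdha1 and Myh7, whose brighter probesets were not, and for neither Ckm nor Hbb-b1. With and without removal of batch means, 28 of the 90 relations between members passed. Within-batch values rest on few strains, and each strain has 1 array per diet, which limits what a strain difference can show.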
